A study of Mus musculus with 4 samples.

Results

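The basal keratin genes described here are Krt5, Krt14, Krt15, Krt16, Krt17 and Krt6a, 6 of the 21887 protein-coding genes over which reads were counted. They were chosen by name, and reads were counted over each gene's annotated span plus 2 kb on either side, by library and by the 14 clusters of nuclei that the authors deposited. The data are single-nucleus ATAC-seq reads, which mark open chromatin and not RNA, from epithelial cells of the mammary gland of CD1 mice sorted by flow cytometry as EpCAM+ and Lin-. A fetal group was taken at embryonic day 18 and an adult group at 8 weeks, with 2 biological replicates in each, and the labels give no genetic change or treatment in either group. The 882 and 1695 fetal nuclei and the 2465 and 2804 adult nuclei held between 6028168 and 19304830 reads per library, with medians of 4420 to 7488 reads per nucleus, and no barcode was shared between libraries.

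Keratins are the intermediate filament proteins of epithelial cells and form filaments as pairs of a type I and a type II chain. Krt5, a type II keratin, pairs with the type I keratin Krt14 in the basal layer of stratified epithelia and in the myoepithelial layer of the mammary gland, while Krt8, Krt18 and Krt19 are typical of luminal cells. Krt15 is a type I keratin of basal epidermis and hair follicle, and Krt6a, Krt16 and Krt17 are known for their induction in wounded or proliferating epidermis. The type I members Krt14, Krt15, Krt16 and Krt17 lie in one gene cluster on chromosome 11 and the type II members Krt5 and Krt6a in another on chromosome 15.

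In mm10 coordinates, which are those of GRCm38, the annotated spans are chr15:101707069-101712905 for Krt5, chr11:100203162-100207510 for Krt14, chr11:100131759-100135949 for Krt15, chr11:100246091-100248902 for Krt16, chr11:100256215-100261029 for Krt17 and chr15:101689928-101694305 for Krt6a. The RefSeq promoter table for GRCm38.p6 matched 2 of the 6 members. The 250 bases before the listed start, on the minus strand and 5′ to 3′, are shown for the pair that is the field's usual basal marker, with matches to the letters GGGNGG of the SP/KLF motif, searched on both strands, in capitals:

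Krt5, chr15:101712906-101713155: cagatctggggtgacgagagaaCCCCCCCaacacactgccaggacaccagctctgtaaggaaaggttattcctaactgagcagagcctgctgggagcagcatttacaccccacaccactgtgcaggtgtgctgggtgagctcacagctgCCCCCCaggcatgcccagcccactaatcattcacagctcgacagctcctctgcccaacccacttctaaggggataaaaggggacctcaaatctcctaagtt

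Krt14, chr11:100206031-100206280: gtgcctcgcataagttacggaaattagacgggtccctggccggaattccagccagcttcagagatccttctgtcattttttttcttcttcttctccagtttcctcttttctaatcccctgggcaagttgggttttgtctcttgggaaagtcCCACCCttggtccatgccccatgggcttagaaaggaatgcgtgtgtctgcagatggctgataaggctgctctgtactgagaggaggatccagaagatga

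The Krt5 stretch ends at the upper end of the span, whereas the start listed for Krt14 is internal, so that its stretch lies within the gene and inside a deposited promoter region at chr11:100205316-100206315. The SP/KLF letters were found in both stretches, on the strand opposite to the one printed, as overlapping matches at positions 23 and 24 and a further match at position 150 of the Krt5 stretch and at position 152 of the Krt14 stretch, counted from the 5′ end. They were in 64.5% of the 32851 promoter stretches of this length in the table. A match is a description of the letters and not a bound site. On either strand, the letters TATAAA of the core promoter box were in neither stretch and in 12.4% of all stretches. The AP-1 letters TGANTCA were in neither and in 6.75% of all. The AP-2 letters GCCNNNGGC were in neither and in 13.7% of all, and the letters AGATAA of the GATA factors in neither and in 9.99% of all.

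The deposited clusters were named from marker genes among which no keratin served for basal or luminal classes. Clusters 1, 4 and 8 were basal-like, with 10, 6 and 9 of 11 markers raised, while 3, 5, 7 and 9 were named luminal progenitor-like, 2 and 11 mature luminal-like and 6 stromal-like, and 10, 12, 13 and 14 had no name. Cluster 12, with 92 and 247 fetal nuclei and none from adult libraries, had 4 of 11 basal markers raised, Trp63 among them, but also 3 of 7 stromal markers, and its mean difference over the basal markers was 0.43 on the log2 scale against 0.44 for cluster 4. The stromal list thus had the larger share raised. Neither share passed the threshold of 0.5 for a name, which was set after the data were seen, so cluster 12 stayed unnamed. Its levels in fetal libraries 1 and 2 were 1.29 and 1.03 for Krt5, 2.70 and 1.72 for Krt17 and 5.52 and 4.89 for Krt14, where the fetal basal-like nuclei had 2.08 and 2.60, 6.26 and 3.63, and 5.26 and 5.59. The stages were held by different clusters of a class: fetal basal-like nuclei were nearly all in cluster 4 and adult ones in clusters 1 and 8, and fetal luminal progenitor-like nuclei were in clusters 5 and 9 and adult ones in clusters 3 and 7. Mature luminal-like nuclei were rare before birth, 3 and 7 per fetal library, against 1002 and 1074 per adult library. The clusters were made from these same nuclei, so levels by cluster are given as a description without a test. Reads-per-million values (RPM) are scaled to all reads of the same nuclei, and a level is the RPM per kb of window.

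In adult nuclei, Krt5, Krt14 and Krt17 were most open in the basal-like class, while Krt16 and Krt6a were as open in mature luminal-like nuclei and the basal-like and mature luminal-like values of Krt15 overlapped. Krt5 had a level of 6.58 and 6.32 in the basal-like nuclei of adult libraries 1 and 2, 0.429 and 0.194 in the luminal progenitor-like nuclei and 0.0708 and 0.149 in the mature luminal-like nuclei. Its adult basal-like level was 15.3 and 32.5 times the luminal progenitor-like one of the same library. Both basal-like values stood far above every adult luminal value. No Krt5 read was found in the 213 stromal-like nuclei of the 4 libraries, where 3 reads would have given a level of 0.204.

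Krt14, the partner of Krt5, reached 12.3 and 6.85 in adult basal-like nuclei, the higher value in library 1. It was at 1.64 and 1.03 in adult luminal progenitor-like nuclei and at 0.375 and 0.351 in mature luminal-like nuclei. The basal-like level was 7.49 and 6.65 times the luminal progenitor-like one. Krt17 was the most open of the members per kb in adult basal-like nuclei, with 13.6 and 12.0, against 1.29 and 1.02 in luminal progenitor-like and 0.889 and 0.693 in mature luminal-like nuclei.

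Krt16 had a level of 2.98 and 2.88 in adult basal-like nuclei and 3.45 and 2.30 in mature luminal-like nuclei, so the values of the classes overlapped. In adult luminal progenitor-like nuclei it was at 0.930 and 0.981. Krt6a was at 2.06 and 1.93 in adult basal-like nuclei and at 2.16 and 2.80 in mature luminal-like nuclei, where both values were the higher ones. Krt15 had 2.86 and 1.24 in adult basal-like, 0.773 and 0.653 in luminal progenitor-like and 1.28 and 1.28 in mature luminal-like nuclei. Krt15 and Krt16 were thus higher in basal-like than in luminal progenitor-like nuclei of each adult library but overlapped with mature luminal-like nuclei, and Krt6a was higher in mature luminal-like than in basal-like nuclei of each adult library. Krt6a has a near-identical neighbour, Krt6b, and how reads that map to both were treated is not given in the sources used here, so its level is uncertain.

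**Figure D1:**
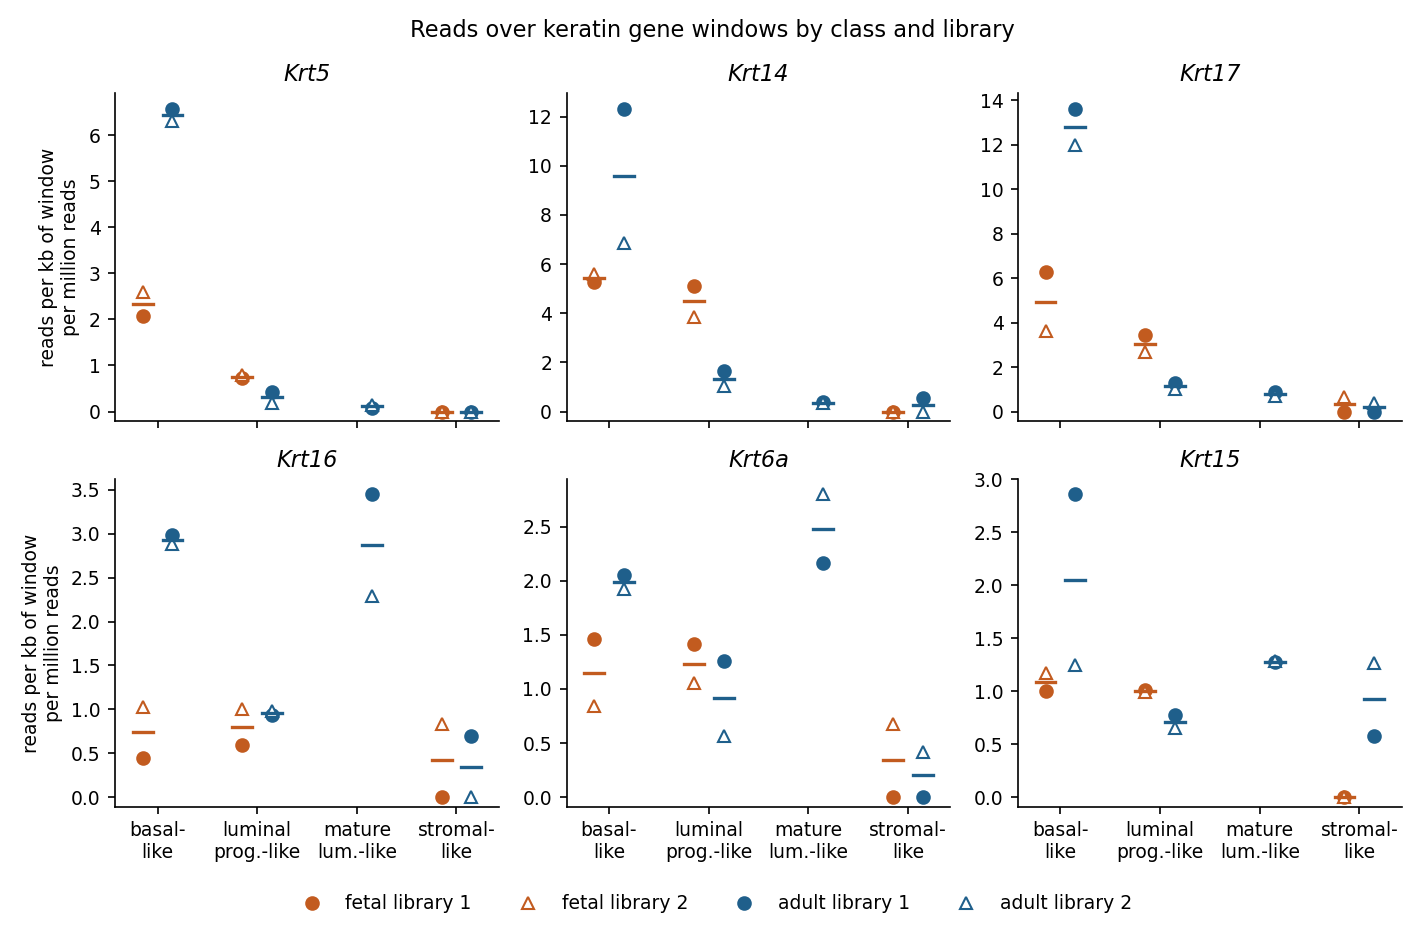
Level of each gene window (RPM per kb of window, scaled to the reads of the same nuclei, linear axis) by class of nuclei; filled circles are replicate 1, open triangles replicate 2, orange fetal, blue adult, and bars the mean of 2 libraries. Classes with under 20 nuclei in a library are not drawn, which leaves out fetal mature luminal-like nuclei. Krt5, Krt14 and Krt17 are highest in adult basal-like nuclei (6.58 and 6.32, 12.3 and 6.85, 13.6 and 12.0), while Krt16 and Krt6a are as high in mature luminal-like nuclei.

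Across single clusters the order was led by the adult basal-like clusters 1 and 8 for Krt5, Krt14 and Krt17. Krt5 had a level of 7.11 (95% exact Poisson interval 6.16 to 8.16) in cluster 1 and 5.58 (4.73 to 6.55) in cluster 8, and then 2.63 (1.65 to 3.98) in the unnamed cluster 14 and 2.52 (2.05 to 3.06) in the fetal basal-like cluster 4. These intervals cover counting error only, and the last pair did not differ beyond them. They treat reads as independent, although several can come from the same nucleus, and so are too narrow. Krt14 fell off less steeply: after 8.91, 7.93 and 5.50 in clusters 1, 8 and 4 it was at 5.03 (4.17 to 6.03) in the unnamed fetal cluster 12 and at 4.74 (4.27 to 5.24) in the fetal luminal progenitor-like cluster 9, both with intervals that overlapped that of cluster 4 (4.74 to 6.34). The place of cluster 8 for Krt14 rested on adult library 1, at 14.2, since adult library 2 was at 5.62, next to 5.3 and 5.63 in the fetal libraries of cluster 4. Krt17 had 12.9 and 11.8 in clusters 1 and 8, with overlapping intervals, and then 4.66 (3.25 to 6.49) in cluster 14, 4.41 (3.75 to 5.15) in cluster 4 and 3.44 (3.06 to 3.86) in cluster 9. By library, cluster 4 was at 6.31 and 3.65 in fetal and cluster 14 at 4.76 and 4.65 in adult libraries, so their order is not settled.

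Krt16 was highest in cluster 1 with 4.12 (3.27 to 5.12), followed by the mature luminal-like cluster 2 with 2.87 (2.47 to 3.32), and it was lowest in the fetal clusters 5 and 12 with 0.15 and 0.105. The adult basal-like cluster 8 was at 1.66 (1.12 to 2.35), under clusters 1 and 2. Krt6a was led by cluster 14 with 3.22 (2.04 to 4.84) and cluster 2 with 2.84 (2.48 to 3.24), which did not differ beyond counting error. Krt15 was led by cluster 8 with 2.18 (1.61 to 2.88) and cluster 12 with 2.00 (1.46 to 2.67), which did not differ beyond counting error, and it had no read in clusters 13 and 14. The place of cluster 8 for Krt15 rested on adult library 1, at 3.85, since adult library 2 was at 1.56, below 2.33 and 1.91 in the fetal libraries of cluster 12 and next to 1.43 and 1.57 in the adult libraries of cluster 2.

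**Figure D2:**
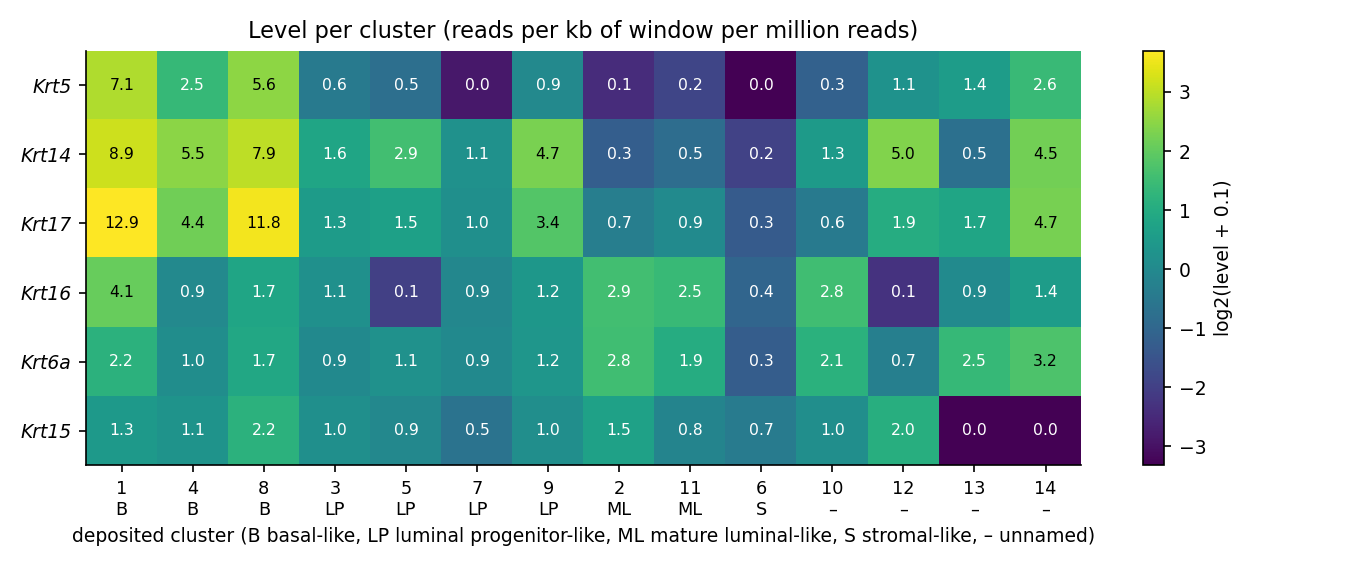
Level of each gene window in each deposited cluster, all libraries together; the printed values are RPM per kb of window and the colour is log2 of that value plus 0.1. The adult basal-like clusters 1 and 8 lead for Krt5, Krt14 and Krt17, and Krt16 and Krt6a are also high in the mature luminal-like cluster 2 (2.87 and 2.84).

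The pattern across the 14 clusters joined Krt5, Krt14 and Krt17. On log2 of RPM plus 2, Krt5 and Krt17 correlated with r = 0.944, Krt14 and Krt17 with r = 0.875 and Krt5 and Krt14 with r = 0.832. Krt16 correlated with Krt6a at r = 0.702 and with Krt5 and Krt14 at 0.204 and -0.011. These are descriptions over 14 clusters that share libraries and depth. Among 17221 genes, the 3 most like Krt5 were Reln, an extracellular matrix glycoprotein (r = 0.952), Krt17 (0.944) and Adgra3, an adhesion receptor (0.939). The 3 most like Krt14 were Lpo, which encodes lactoperoxidase (0.972), Trp63, the p63 factor of basal epithelium and one of the markers used to name the classes (0.955), and Slc25a13, a mitochondrial carrier (0.949). Krt17 was followed by Krt5, Drc1 and Kctd4, Krt16 by Pibf1, Shprh and S100a6, Krt6a by Cela2a and Ccdc68, and Krt15 by Adgrg7, Mrps35 and Pus10, with r between 0.856 and 0.944.

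The share of nuclei with a read parted the classes in the same way. With each nucleus thinned to 2000 reads, which kept every nucleus, the expected share with a read over Krt5 was 8.22% and 8.38% of adult basal-like and 3.01% and 3.90% of fetal basal-like nuclei. It was 0.94% and 1.08% of fetal and 0.26% and 0.17% of adult luminal progenitor-like nuclei. For Krt14 the share was 11.7% and 7.36% of adult and 6.23% and 7.34% of fetal basal-like nuclei, the fetal values being the lower ones, with adult library 2 next to fetal library 2. Its share in luminal progenitor-like nuclei was 6.05% and 5.16% in fetal and 1.63% and 1.17% in adult libraries, with no overlap. Without thinning, 16.9% and 12.8% of adult basal-like and 11.9% and 17.4% of fetal basal-like nuclei had a Krt14 read, at median depths of 3901.5 and 4547.5 reads against 6172 and 6884. In stromal-like nuclei, which should lack Krt14, the unthinned share was 1.22% in adult library 1 and 0% in the other 3, at medians of 4482.5 to 8066 reads.

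Summed over whole libraries, fetal against adult, 3 of the 6 members passed edgeR's quasi-likelihood test at an adjusted p under 0.05, 1 higher and 2 lower in fetal, where 22.2% of the 18808 genes tested did. In a whole-library sum fewer nuclei of a type and less accessibility per nucleus cannot be told apart, and p-values measure only the spread between these libraries. Krt14 had a level of 4.87 and 4.11 in the fetal and 2.34 and 2.07 in the adult libraries. The stages did not overlap, and Krt14 was higher in fetal by 1.02 on the log2 scale (SE 0.146, edgeR adjusted p = 3.68e-04). Krt16 was at 0.463 and 0.920 in fetal and at 2.38 and 1.95 in adult libraries and fell by 1.52 (SE 0.283, edgeR adjusted p = 0.00204), a call lost without the flanks (adjusted p = 0.134). Without fetal replicate 2 the Krt16 value was -2.25 and without fetal replicate 1 it was -1.20, both still called.

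Krt6a was at 1.25 and 1.10 in fetal and at 1.80 and 1.90 in adult libraries and fell by 0.68 (SE 0.199, edgeR adjusted p = 0.0260), a call lost without fetal replicate 1 (adjusted p = 0.0591), without fetal replicate 2 (0.164), without adult replicate 2 (0.0884), with DESeq2 (0.0704) and without the flanks of 2 kb (-1.72, adjusted p = 0.0819). With Krt16 and Krt6a moved the mature luminal-like nuclei, 3 and 7 per fetal and 1002 and 1074 per adult library, and the summed level of all 8 mature luminal-like markers, each with reads in every library, at 454 and 491.8 RPM in fetal and 718 and 712.1 in adult libraries. Other lists also parted the stages. Higher in fetal libraries were the stromal-like (161.2 and 160.0 against 115.0 and 119.2 RPM) and melanocyte markers (116.0 and 116.8 against 111.2 and 93.9). Lower were those of differentiated epidermis (79.1 and 77.8 against 97.4 and 88.7), Schwann and neural (39.3 and 39.2 against 52.6 and 49.0) and immune cells (42.3 and 45.1 against 45.4 and 46.2). The basal-like, luminal progenitor-like and endothelial lists overlapped. The part of mature luminal-like nuclei and of these lists was not tested. Krt5 was at 0.944 and 1.21 in fetal and 1.01 and 1.54 in adult libraries, Krt17 at 3.56 and 2.67 against 2.56 and 3.26, and Krt15 at 1.07 and 1.09 against 1.22 and 1.06. For each of these 3 the libraries of the stages overlapped and the log2 difference was -0.23 (SE 0.253), 0.06 (SE 0.177) and -0.06 (SE 0.233). The sign of the Krt17 value turned without the flanks (-0.25) and without the bases of other genes (-0.46), which leaves out its promoter, shared with the window of Krt42.

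Within basal-like nuclei the differences were mostly toward lower fetal levels. Krt5, Krt16 and Krt17 were lower in fetal and no member was higher, so that 3 of 6 were called, where 5.96% of 16497 genes were called and 3.04% were called lower. The median difference of the 6 members was -1.13 on the log2 scale, against 0.00 over all genes tested. Krt5 was at 2.08 and 2.60 in fetal and 6.58 and 6.32 in adult basal-like nuclei. The stages did not overlap, and Krt5 fell by 1.38 (SE 0.271, edgeR adjusted p = 0.00117).

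Krt17 was at 6.26 and 3.63 in fetal against 13.6 and 12.0 in adult basal-like nuclei and fell by 1.44 (SE 0.237, edgeR adjusted p = 1.36e-04). Both fetal values lay under both adult values. Leaving out each library in turn gave -1.63 to -1.26 for Krt5 and -1.77 to -1.03 for Krt17. Krt16 rested on 3 and 22 fetal reads, at levels of 0.450 and 1.03 against 2.98 and 2.88, and fell by 1.75 (SE 0.472, edgeR adjusted p = 0.0192). That call was lost without fetal replicate 1 (adjusted p = 0.0973), without adult replicate 1 (0.0543) and without adult replicate 2 (0.0923), and without fetal replicate 2 the value was -2.68.

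Krt14 was at 5.26 and 5.59 in fetal and 12.3 and 6.85 in adult basal-like nuclei. The fetal values were the lower ones, but the adult libraries lay far apart, and the difference of -0.74 (SE 0.25, edgeR adjusted p = 0.0717) was not called. Without adult replicate 2 it was -1.11 (adjusted p = 0.00485), and without adult replicate 1 it was -0.33. Krt15 and Krt6a differed by -0.77 (SE 0.481) and -0.88 (SE 0.461) and were not called. The size of the Krt15 value rested on adult library 1, since leaving out 1 library gave -1.29 to -0.17, the last without adult replicate 1, and for Krt6a it gave -1.20 to -0.44.

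The summed level of the 11 basal-like markers, none of them a keratin and each with reads in every library, was 761 and 863 RPM in fetal and 1546 and 1459 in adult basal-like nuclei. The 9 luminal progenitor-like markers summed to 301 and 287 in fetal and 183 and 184 in adult basal-like nuclei. In fetal basal-like nuclei the first list was lower, as Krt5, Krt16 and Krt17 were, and the second was higher, each without overlap of the stages. The 7 stromal-like markers summed to 158 and 169 in fetal and 144 and 132 in adult basal-like nuclei, with Lum at 0 reads in fetal library 1, and the 8 mature luminal-like markers to 407 and 470 against 386 and 406. The part of these lists in the result was not tested. The 7 markers of differentiated epidermis summed to 76.6 and 73.8 in fetal and 57.9 and 53.9 in adult basal-like nuclei, with Flg at 0 reads in both fetal libraries and no marker at 0 in the adult ones. Their part was not tested either.

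Within luminal progenitor-like nuclei, a fit chosen after seeing the data, Krt14 and Krt17 rose in fetal and no member fell, so that 2 of 6 were called, where 19.9% of 17649 genes were called and 9.65% were called higher. Krt14 was at 5.10 and 3.85 in fetal and 1.64 and 1.03 in adult luminal progenitor-like nuclei. The stages did not overlap, and Krt14 rose by 1.69 (SE 0.232, edgeR adjusted p = 8.70e-06). Krt17 was at 3.43 and 2.67 against 1.29 and 1.02 and rose by 1.34 (SE 0.244, edgeR adjusted p = 2.81e-04). Both calls held without each library in turn. The Krt17 level was not alike in the fetal clusters of this class. Cluster 9 was at 4.16 and 3.204 in the fetal libraries and cluster 5 at 1.62 and 1.42. The cluster 5 values overlapped those of adult cluster 3, at 1.87 and 0.995, and lay above those of adult cluster 7, at 1.001 and 1.077. The part of each cluster in the Krt17 rise was not tested. Windows without flanks were not fitted within this class, so the part of the promoter that Krt17 shares with Krt42 was not tested there.

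Krt5 was at 0.717 and 0.783 in fetal and 0.429 and 0.194 in adult luminal progenitor-like nuclei. The difference of 1.25 (SE 0.491, edgeR adjusted p = 0.0756) was not called, although it was with the replicate block. Without adult replicate 1 it was 1.89, and adult luminal progenitor-like Krt5 reads numbered only 20 and 10. The adult clusters of this class were not alike for Krt5. Cluster 3 was at 1.24 and 0.243 and cluster 7 at 0 and 0.0772. In the fetal libraries cluster 9 was at 0.932 and 0.855 and cluster 5 at 0.182 and 0.617. Adult cluster 3 thus overlapped both fetal clusters. The part of each cluster in the Krt5 difference was not tested. Krt15, Krt16 and Krt6a differed by 0.45 (SE 0.390), -0.24 (SE 0.432) and 0.38 (SE 0.375) and were not called. The basal-like markers summed to 612 and 581 RPM in fetal and 646 and 649 in adult luminal progenitor-like nuclei, and the luminal progenitor-like markers to 484 and 457 against 619 and 593. The stromal-like markers summed to 142 and 141 in fetal and 90.8 and 101 in adult luminal progenitor-like nuclei, and those of differentiated epidermis to 80.9 and 80.6 against 125 and 119, with Flg at 0 reads in adult library 1. The mature luminal-like markers summed to 461 and 493 against 401 and 452, the 6 immune markers to 37.0 and 36.4 against 46.2 and 50.6, the 4 melanocyte markers to 114 and 116 against 102 and 93.6 and the 3 Schwann and neural markers to 41.1 and 40.2 against 36.1 and 28.1. The 4 endothelial markers overlapped between the stages, at 98.3 and 112 against 105 and 117. The part of the marker lists in the rise of Krt14 and Krt17 was not tested.

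**Figure D3:**
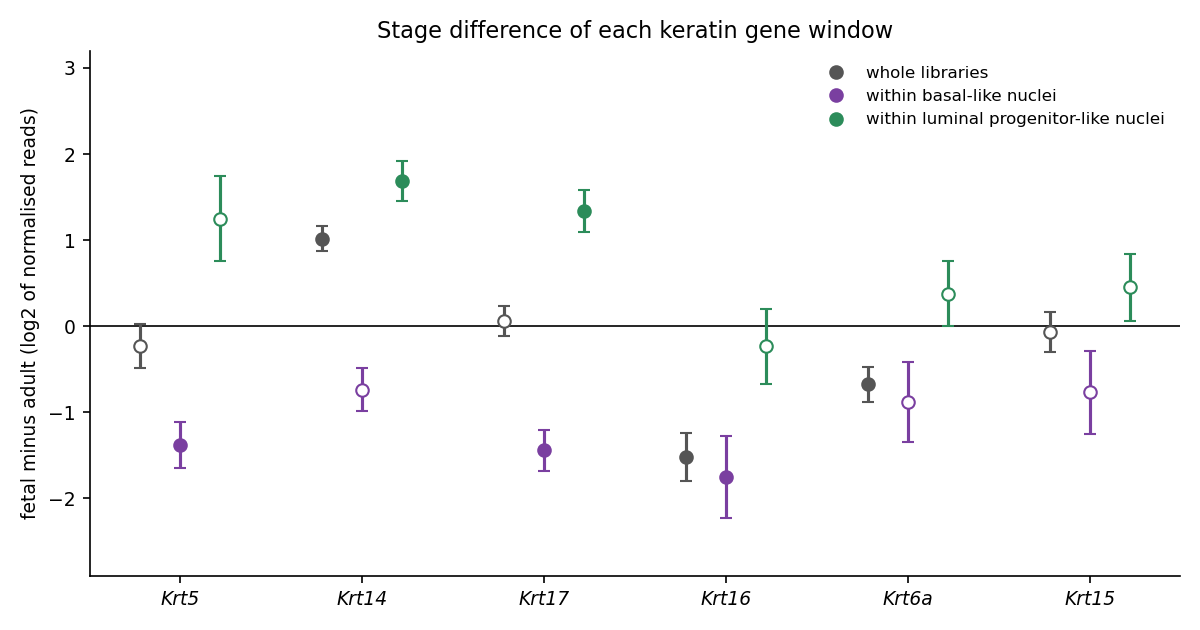
Fetal minus adult difference of each gene window (log2 of normalised reads, edgeR) in whole libraries (grey), basal-like nuclei (purple) and luminal progenitor-like nuclei (green); bars are 1 standard error and filled points passed an adjusted p of 0.05. For Krt5, Krt14 and Krt17 the purple point lies below 0 and the green point above it (-1.38 and 1.25, -0.74 and 1.69, -1.44 and 1.34).

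The stage difference of Krt5, Krt14 and Krt17 differed between basal-like and luminal progenitor-like nuclei. In the interaction test, which takes the difference in basal-like minus that in luminal progenitor-like nuclei, 3 of 6 members were called and all 3 were negative, where 3.37% of 17263 genes were called and 2.01% were called negative. Krt17 had -2.83 (SE 0.328, edgeR adjusted p = 2.20e-05), Krt14 -2.45 (SE 0.365, edgeR adjusted p = 2.63e-04) and Krt5 -2.68 (SE 0.446, edgeR adjusted p = 8.37e-04). Krt15, Krt16 and Krt6a had -1.24 (SE 0.625), -1.55 (SE 0.636) and -1.31 (SE 0.598) and were not called. The 11 basal markers that named the classes also lay closer together in fetal nuclei, with summed levels of 761 and 863 RPM in basal-like against 612 and 581 in luminal progenitor-like nuclei, where the adult values were 1546 and 1459 against 646 and 649. The part of this narrower contrast between the classes in the result for the 3 keratins was not tested.

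The basal-like and luminal progenitor-like sums come from the same libraries, and with the library as a replicate block the test called 1067 genes in place of 581. Krt17, Krt14 and Krt5 then had -2.82, -2.45 and -2.72 (edgeR adjusted p = 2.26e-11, 4.70e-09 and 1.09e-05). In the fit with no block, the Krt5 call was lost without fetal replicate 2, at -2.80. Leaving out each library in turn gave -3.30 (without adult replicate 1) to -2.22 for Krt5. It gave -2.71 to -2.23 for Krt14 and -2.99 to -2.55 for Krt17. In ratios, basal-like over luminal progenitor-like was 10.5 and 11.8 for Krt17 in the adult libraries and 1.82 and 1.36 in the fetal ones. For Krt14 the ratio was 7.49 and 6.65 in adult and 1.03 and 1.45 in fetal libraries. For Krt5 it was 15.3 and 32.5 in adult and 2.89 and 3.32 in fetal libraries.

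The reads around the 5′ ends showed where the classes and stages parted. Krt14 had its highest 200-base bin of both basal-like groups in the 200 bases before the upper end of its span, which is the 5′ end of this minus-strand gene. That bin held 9.19 and 9.59 RPM in fetal and 11.1 and 6.71 in adult basal-like nuclei, from 6 to 20 nuclei per library. In luminal progenitor-like nuclei it held 5.04 and 4.75 in fetal and 0.845 and 0.955 in adult libraries. Fetal luminal progenitor-like nuclei thus had more reads at the Krt14 start than adult ones, with no overlap, and the basal-like stages overlapped.

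Krt17 showed a start open in both stages and a further site with more reads in adult basal-like nuclei. In the 200 bases before its upper end, basal-like nuclei held 6.13 and 7.35 RPM in fetal and 9.86 and 6.21 in adult libraries. The bin 5200 to 5400 bases from that end in the gene's direction lies past its 3′ end. It borders the deposited distal region chr11:100254626-100255625, so a read can span both. The bin held 2.04 and 4.15 in fetal and 10.5 and 11.2 in adult basal-like nuclei. In the first bin the stages overlapped, and in the second they did not. The whole promoter region at the start, chr11:100260650-100261649, had 20.4 and 15.7 RPM in fetal and 30.8 and 24.6 in adult basal-like nuclei. Both fetal values were the lower ones, and that difference was not tested. The bins were picked for their height in these reads, so no test is given.

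Krt5 had its highest adult basal-like bin 2000 to 2200 bases inside the gene, in none of the deposited regions. It held 12 and 37 reads from 7 and 19 nuclei in adult basal-like libraries 1 and 2, or 7.39 and 9.20 RPM, and 1 and 0 reads in the fetal ones. Fetal basal-like nuclei had their highest bin 3200 to 3000 bases before the start, with 4.08 and 6.71 RPM against 1.85 and 1.74 in adult basal-like nuclei. These values rested on 4 and 21 reads from 2 and 8 nuclei in fetal and 3 and 7 reads from 2 and 4 nuclei in adult libraries. The stages did not overlap at either site, but these sites too were picked for their height.

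**Figure D4:**
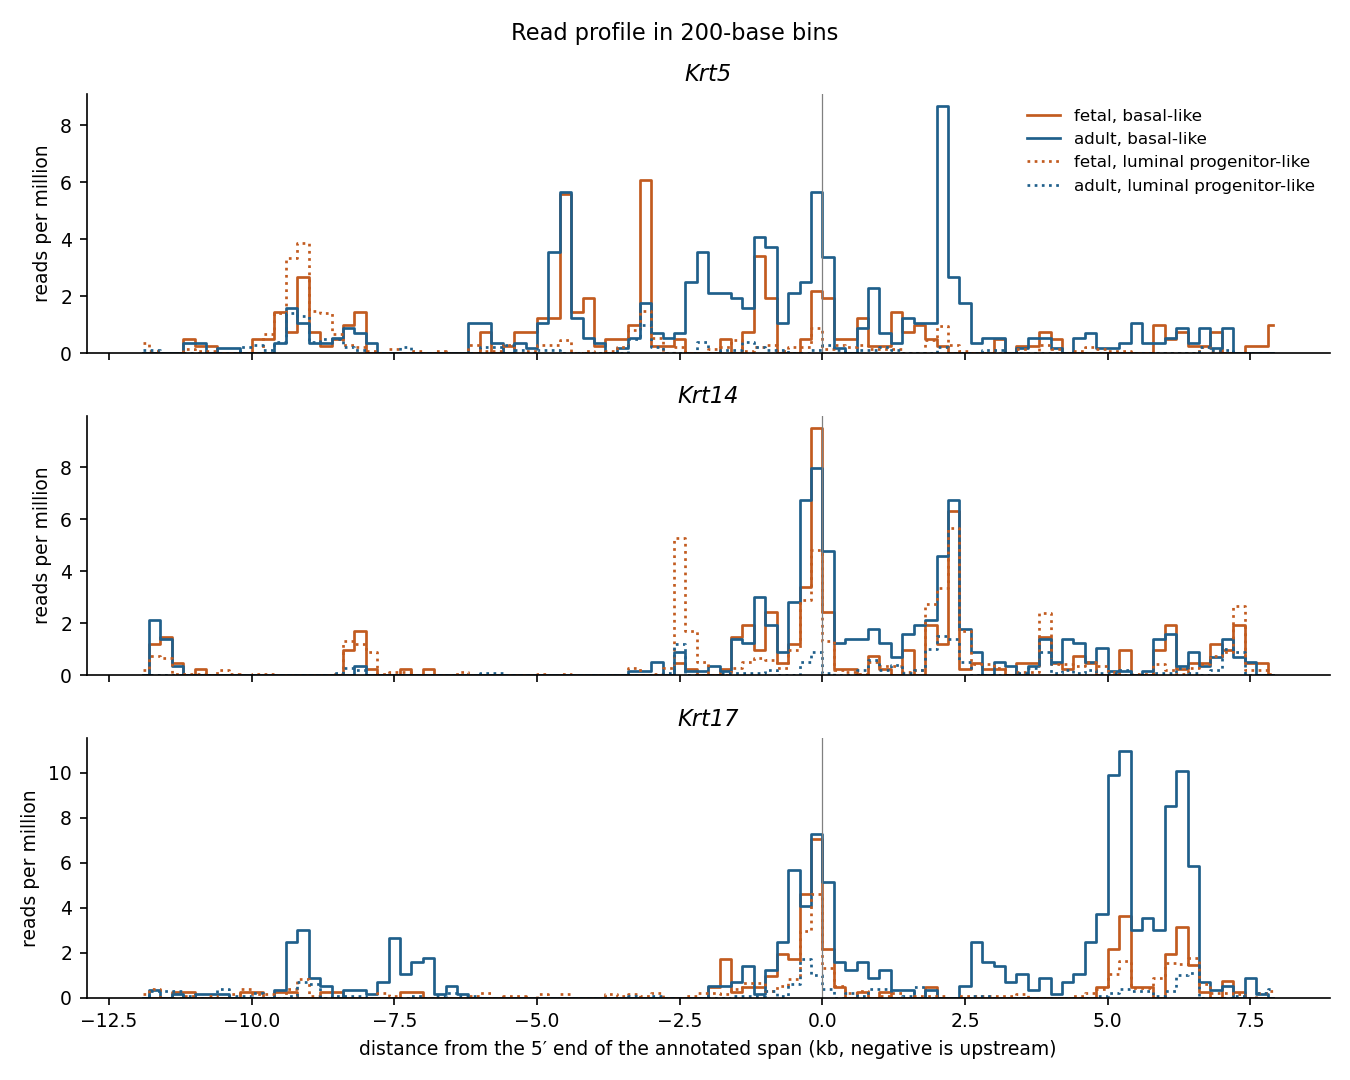
RPM in 200-base bins by distance in kb from the 5′ end of the annotated span (negative is upstream) for Krt5, Krt14 and Krt17, both libraries of a stage together; solid lines are basal-like and dotted lines luminal progenitor-like nuclei, orange fetal and blue adult. The adult basal-like line stands out 2000 to 2200 bases inside Krt5 and 5200 to 5400 bases downstream of the Krt17 start, and the fetal luminal progenitor-like line rises at the Krt14 start.

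Among the deposited regions 24 were named by rule, 8 promoter and 16 distal regions that overlap a member's window or are among the 2 distal regions with the most reads within 25 kb of a member. All 8 promoter regions were tested across whole libraries and 5 were called, 3 higher and 2 lower in fetal, where 21.5% of 18570 promoter regions were called. All 16 distal regions passed the filter on low counts and 8 were called, 4 higher and 4 lower, where 35.3% of 122865 distal regions were called. One of the 4 lower ones, inside Krt17, passed only through its adult reads.

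At Krt14, the promoter region chr11:100207509-100208508 had 13.3 and 11.9 RPM in fetal and 5.30 and 6.32 in adult libraries and was higher in fetal by 1.08 (SE 0.224, edgeR adjusted p = 1.80e-04). The internal promoter region, which holds the Krt14 stretch printed above, had 10.5 and 8.42 against 5.45 and 4.14 and was higher by 0.96 (SE 0.254, edgeR adjusted p = 0.00351), a call lost without adult replicate 2 (adjusted p = 0.0556) and when only read midpoints counted (0.0688). A distal region 1853 bases upstream of the span, chr11:100209363-100210362, had 5.81 and 5.76 against 1.18 and 0.829 and was higher by 2.57 (SE 0.412, edgeR adjusted p = 4.31e-06). Over all nuclei of a library, these 3 regions were higher in both fetal libraries than in either adult one.

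In fetal nuclei that upstream region was more open in the luminal progenitor-like than in the basal-like class. Of its 35 and 91 fetal reads, 27 and 79 were in luminal progenitor-like and 0 and 3 in basal-like nuclei. That is 6.80 and 8.33 against 0.00 and 0.959 RPM, and the remaining reads came from other fetal nuclei. In adult libraries it had 3.70 and 1.24 in basal-like nuclei, from 6 and 5 reads, and 1.69 and 0.955 in luminal progenitor-like nuclei, the lower value in each library. The Krt14 promoter region had 10.6 and 10.8 RPM in fetal and 1.69 and 1.72 in adult luminal progenitor-like nuclei, and 23.5 and 18.2 in fetal and 32.6 and 23.4 in adult basal-like nuclei. The internal promoter region had 12.9 and 8.76 in fetal and 5.07 and 2.67 in adult luminal progenitor-like nuclei. In basal-like nuclei it had 5.11 and 7.35 in fetal and 25.3 and 10.7 in adult libraries, with both fetal values lower. Its class values were not tested.

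Around the 3′ end of Krt14, the distal region chr11:100202669-100203668 was higher in fetal libraries by 1.09 (SE 0.416, edgeR adjusted p = 0.0366) and the one at chr11:100199683-100200682 by 1.3 (SE 0.383, edgeR adjusted p = 0.00719). The first call was lost with DESeq2 (adjusted p = 0.191), with no filter (0.0685), with read midpoints (0.0505) and without fetal replicate 1 (0.270), adult replicate 1 (0.0530) or adult replicate 2 (0.328). The second was lost with DESeq2 (0.0865) and without fetal replicate 2 (0.0648), adult replicate 1 (0.0621) or adult replicate 2 (0.0563). A further region at chr11:100200976-100201975 differed by 0.43 (SE 0.609) and was not called.

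At Krt17, the promoter region chr11:100260650-100261649 had 11.8 and 10.3 RPM in fetal and 7.21 and 7.2 in adult libraries and was higher by 0.59 (SE 0.220, edgeR adjusted p = 0.0428). That call was lost with DESeq2 (adjusted p = 0.105), with scaling by total reads (0.0612) and without fetal replicate 1 (0.113), fetal replicate 2 (0.126), adult replicate 1 (0.190) or adult replicate 2 (0.0975). By class, this promoter region was lower in fetal than in adult basal-like nuclei, as given above. In luminal progenitor-like nuclei it had 12.1 and 10.1 RPM in fetal and 4.22 and 3.25 in adult libraries. The region also lies in the window of the neighbouring Krt42, which Krt17's window overlaps. The distal region chr11:100254626-100255625, which lies 590 bases past the lower end of Krt17 and between it and Krt16, was not called across whole libraries, with -0.31 (SE 0.273). Within basal-like nuclei it had 13.3 and 7.35 RPM in fetal and 39.4 and 37.0 in adult libraries and fell by 1.83 (SE 0.359, edgeR adjusted p = 0.00130). Both adult values stood above both fetal ones. The call was lost without fetal replicate 2 (-1.29, adjusted p = 0.0651) and without adult replicate 1 (-1.89, adjusted p = 0.394).

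The named region with the most reads was the distal region chr11:100277492-100278491, which lies beyond Krt17 and nearest to Krt42. It had 19.6 and 17.3 RPM in fetal and 38.4 and 24.9 in adult libraries and fell by 0.74 (SE 0.198, edgeR adjusted p = 0.00294), a call lost without fetal replicate 2 (0.0759) and without adult replicate 1 (0.0620), while without adult replicate 2 the value was -1.13. It was open in all 3 epithelial classes of the adult libraries, with 22.1 to 49.8 RPM. The distal region chr11:100221421-100222420, among those with the most reads near Krt16, held 7 and 21 reads in fetal and 8 and 37 in adult libraries and was not called.

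Of the 16 named distal regions, 9 passed the filter on low counts within basal-like nuclei and 2 were called lower in fetal, where 10.7% of 27917 were called and 5.85% were called lower. One was the region past the 3′ end of Krt17. The other was chr11:100257692-100258691, inside Krt17, with 13 and 27 reads in adult and none in the 135 and 345 fetal basal-like nuclei. It passed the filter only through its adult reads and could not have been called higher in fetal, so it is given as a description with no test, and the count of 2 supports nothing. Set against 3 reads over both fetal libraries, the adult level was 9.70 times as high. That value is no lower bound, since it leaves out the error of the adult reads and reads shared by a nucleus. Across whole libraries it held 0 and 5 reads in fetal and 15 and 27 in adult libraries, where it likewise passed the filter through the adult reads. Without adult replicate 1 no distal region was called within basal-like nuclei, and 3854 passed an unadjusted p of 0.05 in edgeR, against 7053 with all libraries.

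At Krt16, the promoter region chr11:100248650-100249649 had 2.32 and 5.51 RPM in fetal and 15.5 and 12.2 in adult libraries and fell by 1.63 (SE 0.245, edgeR adjusted p = 4.07e-07). Without fetal replicate 2 the value was -2.62 and without fetal replicate 1 it was -1.25, both still called. By class it had 19.1 and 18.4 in adult basal-like, 22.6 and 14.7 in mature luminal-like and 5.91 and 5.92 in luminal progenitor-like nuclei. In fetal basal-like nuclei it had 0 and 18 reads. The promoter region was thus high in adult basal-like and mature luminal-like nuclei alike, as the gene window was at class level. Within the adult basal-like class the window was at 4.12 in cluster 1 and at 1.66 in cluster 8.

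At Krt6a, the promoter region chr15:101693961-101694960 had 3.32 and 1.96 RPM in fetal and 8.10 and 9.43 in adult libraries and fell by 1.85 (SE 0.301, edgeR adjusted p = 2.47e-06). Its adult reads came mostly from mature luminal-like nuclei, 77 of 110 in library 1 and 131 of 182 in library 2. A further promoter region at chr15:101695113-101696112 differed by -0.51 (SE 0.377) and was not called. The distal region chr15:101697025-101698024, 2720 bases upstream of Krt6a, was open in all 3 epithelial classes, with 8.53 to 30.2 RPM, and differed by -0.09 (SE 0.214). The regions chr15:101687728-101688727 and chr15:101688782-101689781, past the 3′ end of Krt6a, differed by 0.42 (SE 0.378) and 1.91 (SE 0.944) and were not called. The last held 3 and 28 reads in fetal and 9 and 1 in adult libraries. It passed the filter on low counts only through the 28 reads of fetal library 2. Its value was 0.83 without adult replicate 2, 4.28 without adult replicate 1 and 2.44 without fetal replicate 1.

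At Krt5, the promoter region chr15:101711778-101712777 held 8 and 29 reads in fetal and 17 and 33 in adult libraries and differed by 0.13 (SE 0.544), which was not called. It lies within the gene, as does the distal region chr15:101708337-101709336, which differed by 0.52 (SE 0.864) and was not called either. The distal region chr15:101720997-101721996, 8092 bases upstream of the span, had 6.30 and 8.10 RPM in fetal and 2.21 and 2.18 in adult libraries and was higher by 1.77 (SE 0.334, edgeR adjusted p = 5.58e-05). By class it had 6.55 and 8.55 RPM in fetal luminal progenitor-like nuclei. Fetal basal-like nuclei had 2.04 and 7.99, from 2 and 25 reads, so in fetal library 2 the classes were close. The region at chr15:101716835-101717834, 3930 bases upstream, was more open in basal-like than in luminal progenitor-like nuclei of both stages. It had 14.3 and 10.9 in fetal and 9.24 and 13.4 in adult basal-like nuclei, and at most 1.37 in luminal progenitor-like nuclei. Of its 81 reads in fetal library 2, 34 came from basal-like and 13 from luminal progenitor-like nuclei. The remaining reads came from nuclei outside both classes, so the region was not confined to basal-like nuclei. Within basal-like nuclei the region differed by 0.25 (SE 0.461).

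At Krt15, the promoter region chr11:100136429-100137428 held 14 and 26 reads in fetal and 29 and 35 in adult libraries and differed by -0.04 (SE 0.487). The distal regions with the most reads near it, chr11:100145473-100146472 and chr11:100157315-100158314, have the luminal keratin Krt19 as their nearest gene. They fell in fetal by 1.14 (SE 0.223, edgeR adjusted p = 9.20e-05) and by 2.15 (SE 0.252, edgeR adjusted p = 1.14e-08).

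The deposited Cicero scores, which measure how far 2 regions are open in the same nuclei and were made by the authors over all nuclei together, were highest between Krt14 and Krt17. They carry no sample, so no error is given. The highest of any pair with an end in a member's window was 0.573, between the Krt14 promoter region and the distal region past the 3′ end of Krt17, 47117 bases apart. The Krt14 and Krt17 promoter regions scored 0.532 over 53141 bases, and the Krt17 promoter region and its own 3′ distal region 0.503.

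Of the pairs with an end in the window, 56 of 489 scored at least 0.1 for Krt14, 63 of 399 for Krt17, 14 of 96 for Krt16, 34 of 561 for Krt6a, 13 of 283 for Krt5 and 0 of 101 for Krt15. Over all 12719512 deposited lines 2.63% did. A score of at least 0.25 was reached by 17, 21, 2, 11, 3 and 0 pairs of these genes in the same order, and by 0.514% of all lines. Krt5's highest score was 0.293, between its promoter region and a distal region with 3135 bases between their starts, and that of Krt16 was 0.338, with the distal region between it and Krt17. The 3 highest scores of Krt6a, 0.401, 0.400 and 0.378, joined its promoter region to regions nearest Krt78, Krt7 and Krt80. Krt15's highest was 0.0293.

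The authors' deposited gene accessibility score names no sample. It was above 0 in 18.9% of its nuclei for Krt14, 16.1% for Krt16, 11.3% for Krt17, 8.22% for Krt5 and 5.47% for Krt6a. No score under the name Krt15 was found.

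Other genes of the same structures were read from 3 lists. Of 15 anchoring partners of basal keratins, which build hemidesmosomes and desmosomes, 3 were lower and none higher in fetal basal-like nuclei, where 5.96% of all genes were called and 3.04% were called lower. They were Lamb3, a laminin chain (-1.05), which was one of the markers used to name the classes and is given as a description, Col17a1, a hemidesmosome collagen (-0.83, edgeR adjusted p = 0.0270), and Pkp1, a desmosome protein (-0.61, edgeR adjusted p = 0.0310). The list's median was -0.25. Across whole libraries 3 of the 15 were higher and 3 lower, where 22.2% of all genes were called, with a median of 0.09 against 0.01 over all genes, and in the interaction test 1 of the 15 was called, Pkp1 (-1.18, SE 0.208, edgeR adjusted p = 0.00149), where 3.37% of all genes were called, and nothing is read from that 1 call about the list.

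Of 10 factors of stratified or basal epithelium, Trp63 alone was called within basal-like nuclei, with -0.58 and a list median of -0.04. That is 1 of 10, where 5.96% of all genes were called, and as Trp63 was one of the markers used to name the classes, its values within and between classes are given as a description and support nothing. Across whole libraries Grhl3, Sox10 and Trp63 were higher and Klf4 lower, which is 4 of 10 where 22.2% of all genes were called. The stage difference of Trp63 in basal-like minus that in luminal progenitor-like nuclei was -0.95.

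Of 47 other keratins, 26 passed the filter on low counts within basal-like nuclei, and 2 of them were called, both lower in fetal: Krt42, whose window overlaps that of Krt17 (-0.91, edgeR adjusted p = 0.0499), and Krt75 (-1.46, edgeR adjusted p = 0.0174). That share was near the 5.96% of all genes. Across whole libraries 42 passed, with 6 higher and 8 lower, where 22.2% of all genes were called. The median of the 42 was 0.30, toward higher in fetal, against 0.01 over all genes. Among the 8 were the luminal keratins Krt7 (-1.87, SE 0.126), Krt19 (-1.44, SE 0.129), Krt18 (-0.64, SE 0.132) and Krt8 (-0.60, SE 0.130). The other called ones, among them the 6 higher, are not named here. Mature luminal-like nuclei numbered 3 and 7 per fetal against 1002 and 1074 per adult library, and their part was not tested. In the interaction test 4 of 33 other keratins were called, where 3.37% of all genes were. Krt8 (1.15, SE 0.251, edgeR adjusted p = 0.00926) and Krt78 (0.99, edgeR adjusted p = 0.0230) were positive, and Krt42 (-2.06, edgeR adjusted p = 0.00214) and Krt23 (-1.57, edgeR adjusted p = 0.0447) were negative, as Krt5, Krt14 and Krt17 were.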

How the data were processed

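Single-nucleus ATAC-seq of 4 libraries was analysed from read positions with nucleus barcodes, region lists and cluster numbers that the authors deposited. Bowtie2, MACS2, bedtools and the build mm10 are named in the submitters' processing notes, with no role or version. Settings of the clustering and of Cicero are not given in the sources used here. The authors deposited a read count per nucleus with its cluster number, and the deposited Cicero co-accessibility and gene accessibility values are scores made over all nuclei together.

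Reads whose barcode was in the deposited nucleus lists (86.9% to 95.3% per library) were counted over gene spans plus 2 kb and over the deposited regions, and summed per library and class. Features with a mean of at least 10 reads were tested with edgeR 4.0.16 in R 4.3.3 (quasi-likelihood, TMM scaling, Benjamini-Hochberg adjustment at 0.05). DESeq2 1.42.0, scaling by total reads, other filters, counting each nucleus once, windows without flanks and leaving out each library were alternatives. Leaving out a library leaves a single library in its stage. The spread then comes from the other stage alone, so calls in such fits are given as a description. The fits were tested on simulated data. Python 3.11.15, pandas 2.3.3 and scipy 1.17.1 did the rest. A marker was raised in a cluster at 0.5 or more on the log2 scale above its mean over the other clusters. A cluster took the name of the epithelial or stromal list with the largest share of raised markers where that share was over 0.5 with 3 or more raised and the next list had under 0.333, thresholds set after the data were seen.

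The text names all 6 members, the deposited regions in their windows, the 2 distal regions with the most reads within 25 kb and the 3 genes of most like pattern. A gene of like pattern to Krt6a is not reported here. Members and lists were chosen with earlier results of these data known, and the fit within luminal progenitor-like nuclei was added after seeing the data. Same-numbered libraries had deviation correlations between 0.0121 and 0.285. The labels name no batch or pairing of fetal with adult libraries, and the main stage comparisons carry no block. The correlation of 0.285 was for whole-library genes, where the replicate block called 6421 genes in place of 4174. Doublets were not called, and several reads can come from 1 nucleus. Intervals and floors cover counting error only and treat reads as independent.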

Additional observations from a re-analysis of the deposited data

Results flagged for a closer look

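For 3 genes the fetal minus adult difference was not the same in basal-like and in luminal progenitor-like nuclei by edgeR's interaction test at an adjusted p under 0.05. The difference between the classes was -2.45 on the log2 scale for Krt14, -2.83 for Krt17 and -2.68 for Krt5. Each gene was lower in fetal than in adult basal-like nuclei and higher in fetal than in adult luminal progenitor-like nuclei, although the single differences of Krt14 in basal-like and of Krt5 in luminal progenitor-like nuclei were not called. For Krt5 the adult luminal progenitor-like cluster 3, at 1.24 and 0.243, overlapped the fetal clusters of that class. The summed level of the 11 basal markers that named the classes likewise lay closer between the classes in fetal libraries, at 761 and 863 against 612 and 581 RPM in luminal progenitor-like nuclei, than in adult libraries, at 1546 and 1459 against 646 and 649, and its part in these differences was not tested.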

How the results depend on the processing

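Of 245 values of the 6 genes under alternatives, 222 kept their direction and side of the threshold, 10 lost a call, 4 gained one and 9 changed sign. Of 315 values of the named regions, 266, 28, 5 and 16 did so. No value that changed sign had been called. Whole-library Krt15 was 0.091 with each nucleus counted once, and Krt17 was -0.25 without flanks and -0.46 without bases of other genes, which removes its promoter. The region at 100221421 was 0.071 with the replicate block, 100136429 was 0.20 with each nucleus counted once, and 101716835 within basal-like nuclei was -0.058 with no filter. Leaving out 1 library gave whole-library ranges of -0.15 to 0.0019 for Krt15, -0.14 to 0.27 for Krt17, -0.52 to 0.15 for Krt5, -1.11 to 0.97 for 100200976, -0.66 to 1.02 for 100221421, -0.34 to 0.058 for 101697025, -0.19 to 0.18 for 100136429 and -0.24 to 0.46 for 101711778. Within basal-like nuclei they were 0.0091 for 100200976 (without fetal replicate 1, the others being untested), -1.32 to 0.037 for 100202669 and -0.058 to 0.53 for 101716835, and within luminal progenitor-like nuclei -0.75 to 0.070 for Krt16 and -0.088 to 1.03 for Krt6a. Counts of called features moved more, and the cause was not tested. With DESeq2 they were 24872 in place of 43423 distal regions, 2622 in place of 3992 promoter regions, 319 in place of 984 genes and 1464 in place of 2994 distal regions within basal-like nuclei, and 1967 in place of 3518 genes within luminal progenitor-like nuclei. With a mean of at least 50 reads, 15301 distal regions and 186 within basal-like nuclei were called, from fewer tested. With each nucleus counted once the basal-like counts were 1511 genes and 1897 distal regions. The interaction gave 905 genes with no filter and 1067 with the replicate block in place of 581, and whole-library genes were 6421 with the replicate block in place of 4174. Leaving out 1 library gave 1812 to 4463 whole-library genes, 2514 to 3057 promoter regions, 554 to 867 genes and 0 to 3904 distal regions within basal-like nuclei, 84 to 540 genes for the interaction and 1149 to 3423 within luminal progenitor-like nuclei. The share of calls higher in fetal basal-like nuclei was 49.1% of genes and 37.9% with DESeq2, and 45.5% of distal regions and 30.5% with scaling by total reads, where the median of all shifted from -0.03 to -0.23. The replicate block within luminal progenitor-like nuclei called Krt5 (adjusted p = 0.0429). Some levels rested on as few as 2 reads, and 2 libraries a stage limit the precision.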
